A study of Rattus norvegicus with 8 samples.

Results

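The 47 genes described here encode proteins that copy DNA and supply its building blocks, and they were chosen by gene symbol. Of them, 44 have a probe set with their symbol among the 13915 named genes of the arrays, whereas *Cdc6*, *Cdc7* and *Gins2* are not analysed here. Granulosa cells (GCs), the somatic cells that surround the oocyte and make estradiol, were collected from sexually immature female rats of 24 days of age, and their RNA was measured 24 hr. after the start of treatment. PKA-CQR GCs carried a lentivirus for a mutant catalytic subunit of protein kinase A that binds its regulatory subunit poorly and is active without cAMP (n = 3 arrays). FSH-stimulated GCs carried the EGFP lentivirus, which encodes a green fluorescent protein, and received FSH at 100 ng/ml (n = 3). Control GCs carried the EGFP lentivirus alone (n = 2). All 3 treatments were applied to freshly isolated primary cells in medium that contained testosterone, and each array reads a whole culture, so the measured RNA is a mean over all its cells, whether transduced or not.

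DNA replication is prepared in G1, when the origin recognition complex (ORC), *Cdc6* and *Cdt1* load the ring of MCM2 to MCM7 onto DNA. In S phase CDC45 and the GINS complex turn that ring into a working helicase. Polymerase alpha with primase then starts each strand, polymerases delta and epsilon extend it on the PCNA clamp, and FEN1 and DNA ligase join the fragments of the lagging strand, while ribonucleotide reductase, thymidylate synthase, thymidine kinase and dUTPase provide balanced deoxynucleotides. Many of these genes are known to be transcribed under E2F factors, which the retinoblastoma proteins hold back until cyclin D and its kinases act. FSH is known to drive GC proliferation in growing follicles as well as their differentiation, and cyclin D2 is the cyclin it is known to induce there.

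Promoter windows of 250 bases before to 50 after the annotated start were available from RefSeq (build GRCr8) for 38 of the 44 members. They were searched on both strands for the E2F words TTTCCCGC, TTTCGCGC, TTTGCCGC and TTTGGCGC, and words on opposite strands can overlap. At least 1 word was present in 18 of 38 members (47.4%), against 357 of 9996 promoters of genes on the arrays (3.57%) and 618 of 27457 promoters in the table (2.25%). All 6 *Mcm* genes of the helicase group that had a window (*Mcm2*, *Mcm3*, *Mcm5*, *Mcm6*, *Mcm7* and *Mcm8*) held a word. The stretches of the 4 of them that rose with PKA-CQR and have each word upstream of the start are shown with that of *Gins1*, because these genes are among those that rose. E2F words are in capitals, each sequence runs 5′ to 3′ toward the gene, and an unbroken run of 12 capitals holds 2 overlapping words.
rat Mcm2, chr4:122918095-122918138, - strand: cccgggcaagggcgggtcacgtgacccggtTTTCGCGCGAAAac
rat Mcm5, chr19:13488570-13488812, + strand: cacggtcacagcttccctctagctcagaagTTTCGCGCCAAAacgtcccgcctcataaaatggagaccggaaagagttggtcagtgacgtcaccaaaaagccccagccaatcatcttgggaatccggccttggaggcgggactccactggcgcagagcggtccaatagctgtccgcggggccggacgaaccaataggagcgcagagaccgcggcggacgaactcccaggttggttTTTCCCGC
rat Mcm6, chr13:42404450-42404521, - strand: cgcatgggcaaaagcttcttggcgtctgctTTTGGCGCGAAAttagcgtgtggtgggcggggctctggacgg
rat Mcm7, chr12:22163193-22163428, - strand: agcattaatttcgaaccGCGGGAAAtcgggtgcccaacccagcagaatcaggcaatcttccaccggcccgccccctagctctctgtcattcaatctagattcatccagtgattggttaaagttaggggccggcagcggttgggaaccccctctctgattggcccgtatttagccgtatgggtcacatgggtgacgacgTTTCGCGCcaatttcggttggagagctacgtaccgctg
rat Gins1, chr3:160184865-160184919, + strand: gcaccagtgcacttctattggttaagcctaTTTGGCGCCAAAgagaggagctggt
In *Mcm2* the pair of words lay at positions -14 to -3 from the start, in *Gins1* at -25 to -14 and in *Mcm6* at -139 to -128. *Mcm5* held a pair at -213 to -202 and a further word at -8 to -1, directly before the start. *Mcm7* held separate words at -233 to -226 and at -52 to -45, and the last base of the second is the first of a CCAAT box. The full cAMP response element, TGACGTCA, was found in 1 of 38 members, *Mcm5* (positions -159 to -152, in lower case above), against 286 of 9996 promoters of genes on the arrays (2.86%). A CCAAT box on either strand was present in 21 members (55.3%), against 37.3% of the promoters of genes on the arrays. By response, 10 of 20 members that rose with PKA-CQR held a word, as did 5 of 12 that rose with FSH and 8 of 18 that rose with neither. These matches describe letters in a window and were not tested as binding sites.

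**Figure D1:**
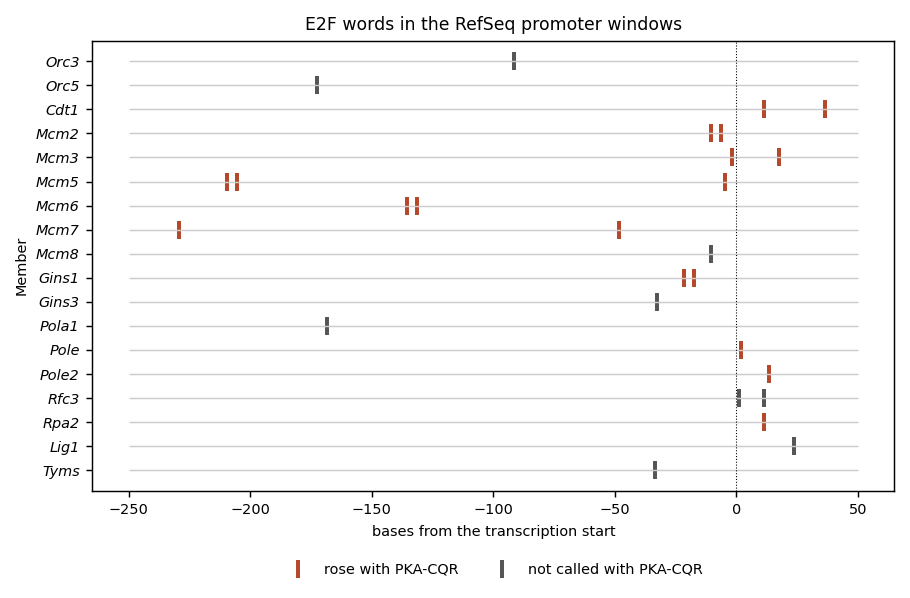
Positions of E2F words in the promoter windows of the 18 members that hold one, in bases from the annotated transcription start (0, dotted line), with red ticks for members that rose with PKA-CQR and grey ticks for members not called. The words lie from -233 in *Mcm7* to 40 in *Cdt1*, and both colours occur on either side of the start.

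With PKA-CQR, 23 of 44 members (52.3%) rose over EGFP and 0 fell, where 6.48% of all 13915 genes rose and 6.02% fell. With FSH, 14 members (31.8%) rose and 0 fell, where 13.4% of all genes rose and 12.1% fell. These calls are made where the adjusted p of limma, fitted over all 8 arrays with Benjamini-Hochberg adjustment across the 13915 genes, is under 0.05. At an unadjusted p under 0.05 the counts were 30 higher and 0 lower with PKA-CQR, and 20 higher and 0 lower with FSH. The share of all genes at that threshold was not counted, so these counts cannot be set against it. The median log2 fold change of the members was 0.37 with PKA-CQR, against 0.026 over all genes, and 0.28 with FSH, against 0.057 over all genes. In a whole culture, fewer cells of a kind and less RNA per cell cannot be told apart, so these values do not say whether more cells were in S phase or each cell held more of the transcripts.

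Both comparisons use the same EGFP arrays, so nothing is read from how many members they have in common. The 23 called with PKA-CQR are *Orc1*, *Cdt1*, *Mcm3*, *Mcm6*, *Mcm7*, *Cdc45*, *Pcna*, *Rfc2*, *Rfc5*, *Rpa2*, *Fen1*, *Rrm2*, *Tk1*, *Dut*, *Orc6*, *Mcm2*, *Mcm4*, *Mcm5*, *Mcm10*, *Gins1*, *Pole*, *Pole2* and *Rrm1*. The 14 called with FSH are those listed up to *Dut*, and of the other 9 only *Mcm4* was called when PKA-CQR was set directly against FSH. Every PKA-CQR array lay above both EGFP arrays for 32 members (72.7%, against 22.9% of all genes) and below both for 0 (against 17.6%). Every FSH array lay above both EGFP arrays for 25 members (56.8%, against 29.9%) and below both for 3, *Gins4*, *Pola2* and *Prim2* (6.82%, against 19.3%), none of which passed the test.

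The counts rest on few controls. Without EGFP replicate 1, 6 members rose with PKA-CQR, where 3.53% of all genes did, and 8 rose with FSH, where 8.49% did. Without EGFP replicate 2 the counts were 13 with PKA-CQR (4.55% of all genes) and 8 with FSH (9.49%), and without PKA-CQR replicate 1, 2 or 3 they were 14, 14 and 11 for PKA-CQR (4.79%, 4.34% and 4.43% of all genes). *Orc6*, *Cdc45*, *Gins1*, *Pole*, *Pole2* and *Rrm1* lost their calls with PKA-CQR after a second quantile normalization, after centring each array on its median, and when every probe set was tested. With the replicate number as a block, 19 members rose with PKA-CQR, 18 of them among the 23 (*Orc6*, *Cdc45*, *Pole*, *Rfc2* and *Rrm1* were lost and *Pold1* passed), and 16 rose with FSH, 13 of them among the 14 (*Mcm3* was lost and *Mcm2*, *Mcm10* and *Pold2* passed), where 7.26% and 14.3% of all genes did. With a random block 26 members rose with PKA-CQR (7.82% of all genes) and 16 with FSH (15.3%). When EGFP replicate 2 was placed in culture group 3, the block gave 30 with PKA-CQR (9.49%) and 25 with FSH (17.2%). That placement departs from the study, which took its controls from groups 1 and 2 and used their mean for group 3.

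**Figure D2:**
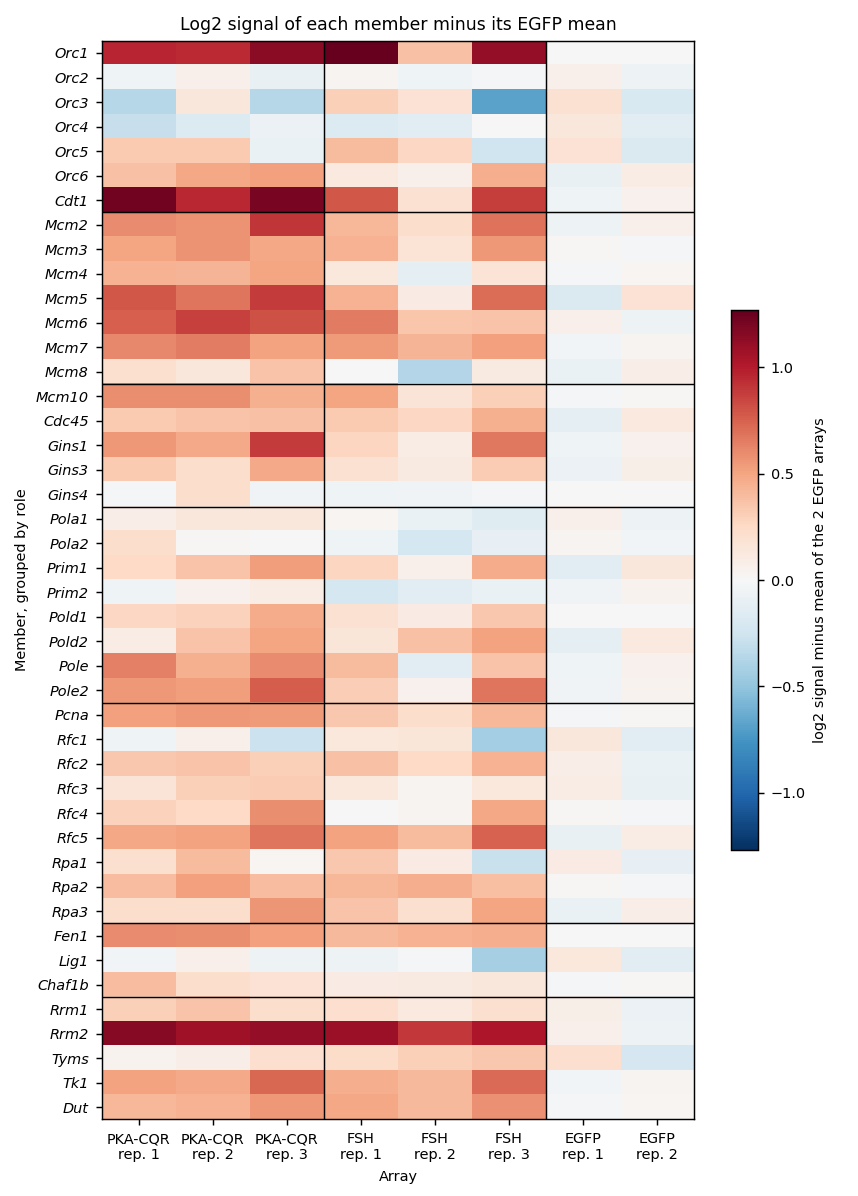
Log2 signal of each of the 44 members in each array minus the mean of the 2 EGFP arrays, with members in rows grouped by role (black lines) and arrays in columns. The strongest red runs through *Orc1*, *Cdt1* and *Rrm2*, and FSH replicate 2 is paler than the other FSH arrays in most rows.

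Of the 7 licensing genes 3 rose with PKA-CQR (42.9%, against 6.48% of all genes) and 2 with FSH (28.6%, against 13.4%). The roles hold 3 to 9 measured genes each, and differences between roles were not tested. *Orc1*, the ORC subunit whose level is known to cycle, had log2 signals of 5.86, 5.84 and 6.04 in PKA-CQR arrays, 6.17, 5.27 and 6.02 in FSH arrays and 4.90 and 4.90 in EGFP arrays. It rose 2.02-fold with PKA-CQR (1.02 on the log2 scale, SE 0.23, adjusted p = 0.0202) and 1.89-fold with FSH (0.92, SE 0.23, adjusted p = 0.0177). The PKA-CQR and FSH arrays all lay above the EGFP arrays, and FSH replicate 2 stood apart from the other FSH arrays, with a level between them and EGFP. *Orc1* was the only member in the lowest 25% of genes by mean signal. Its call with PKA-CQR was lost without any 1 of the PKA-CQR or EGFP arrays (adjusted p up to 0.113), and its call with FSH without either EGFP array (up to 0.0876).

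*Cdt1*, which brings the MCM ring to the origin and is destroyed once S phase begins, had log2 signals of 9.12, 8.86 and 9.10 in PKA-CQR arrays, 8.69, 8.09 and 8.77 in FSH arrays and 7.84 and 7.95 in EGFP arrays. It rose 2.19-fold with PKA-CQR (1.13 on the log2 scale, SE 0.19, adjusted p = 0.00534) and 1.54-fold with FSH (0.62, SE 0.19, adjusted p = 0.0417). Each PKA-CQR array lay above each FSH array, and each FSH array above both EGFP arrays. The call with PKA-CQR did not hold without EGFP replicate 1 (adjusted p = 0.0515), and that with FSH without any 1 array except FSH replicate 2 (adjusted p up to 0.192). *Orc6*, the smallest ORC subunit, rose 1.37-fold with PKA-CQR (adjusted p = 0.0471) and had a log2 fold change of 0.21 with FSH (adjusted p = 0.264), and its call was lost in 7 of the 8 fits that leave out 1 array, all but that without FSH replicate 3. *Orc2*, *Orc3*, *Orc4* and *Orc5* had log2 fold changes from -0.20 to 0.19 with PKA-CQR and from -0.11 to 0.14 with FSH, and none was called. In *Orc3* and *Orc5* the arrays of a group spread widely: replicate 3 was the lowest or equal lowest array of its group under both treatments.

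Of the 7 *Mcm* genes of the helicase group, 6 were called higher with PKA-CQR (85.7%, against 6.48% of all genes) and 3 with FSH (42.9%, against 13.4%). *Mcm7*, a subunit of the MCM ring, had log2 signals of 11.37, 11.41 and 11.27 in PKA-CQR arrays, 11.30, 11.19 and 11.29 in FSH arrays and 10.73 and 10.80 in EGFP arrays. It rose 1.5-fold with PKA-CQR (0.59 on the log2 scale, SE 0.08, adjusted p = 0.00162) and 1.41-fold with FSH (0.50, SE 0.08, adjusted p = 0.00167), and both calls held when any 1 array was left out. *Mcm6*, another ring subunit, had log2 signals of 9.88, 9.99 and 9.93 in PKA-CQR arrays, 9.78, 9.47 and 9.48 in FSH arrays and 9.19 and 9.05 in EGFP arrays. It rose 1.76-fold with PKA-CQR (0.81 on the log2 scale, SE 0.11, adjusted p = 0.00178) and 1.37-fold with FSH (0.46, SE 0.11, adjusted p = 0.0148). For *Mcm7* the PKA-CQR and FSH arrays overlapped and both stood well above EGFP, whereas for *Mcm6* the 3 groups stood in order without overlap. The call of *Mcm6* with FSH was lost without EGFP replicate 2 (adjusted p = 0.0987).

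*Mcm5*, also of the ring and the member with the cAMP response element, had log2 signals of 9.02, 8.92 and 9.13 in PKA-CQR arrays, 8.68, 8.34 and 8.95 in FSH arrays and 8.06 and 8.42 in EGFP arrays. It rose 1.72-fold with PKA-CQR (0.78 on the log2 scale, SE 0.17, adjusted p = 0.0201) and had a log2 fold change of 0.42 with FSH (SE 0.17, adjusted p = 0.119). FSH replicate 2 lay between the EGFP arrays, and FSH replicate 3 lay within the range of the PKA-CQR arrays. The call with PKA-CQR was lost without PKA-CQR replicate 1 or 3 or EGFP replicate 1 (adjusted p up to 0.167). *Mcm4*, a ring subunit phosphorylated by the CDC7 kinase, had log2 signals of 10.40, 10.39 and 10.46 in PKA-CQR arrays, 10.09, 9.84 and 10.14 in FSH arrays and 9.93 and 9.98 in EGFP arrays. It rose 1.37-fold with PKA-CQR (0.46 on the log2 scale, SE 0.10, adjusted p = 0.0154), and its log2 fold change with FSH was 0.06 (SE 0.10, adjusted p = 0.683). Here the FSH and EGFP arrays overlapped and every PKA-CQR array lay above both, but the call was lost without PKA-CQR replicate 3 or either EGFP array (adjusted p up to 0.107).

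The other ring subunits were *Mcm2*, which rose 1.61-fold with PKA-CQR (adjusted p = 0.0178) and narrowly missed the threshold with FSH at 1.36-fold (adjusted p = 0.062), and *Mcm3*, which rose 1.43-fold with PKA-CQR (adjusted p = 0.0149) and 1.3-fold with FSH (adjusted p = 0.0311). The call of *Mcm2* with PKA-CQR was lost without PKA-CQR replicate 3 or either EGFP array. That of *Mcm3* with PKA-CQR was lost without PKA-CQR replicate 2 or either EGFP array, and its call with FSH without PKA-CQR replicate 1, FSH replicate 1 or 3 or either EGFP array. *Mcm8*, a paralog that acts in recombination and not in the replicative ring, was called in neither comparison (log2 fold change 0.24 with PKA-CQR and -0.09 with FSH).

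**Figure D3:**
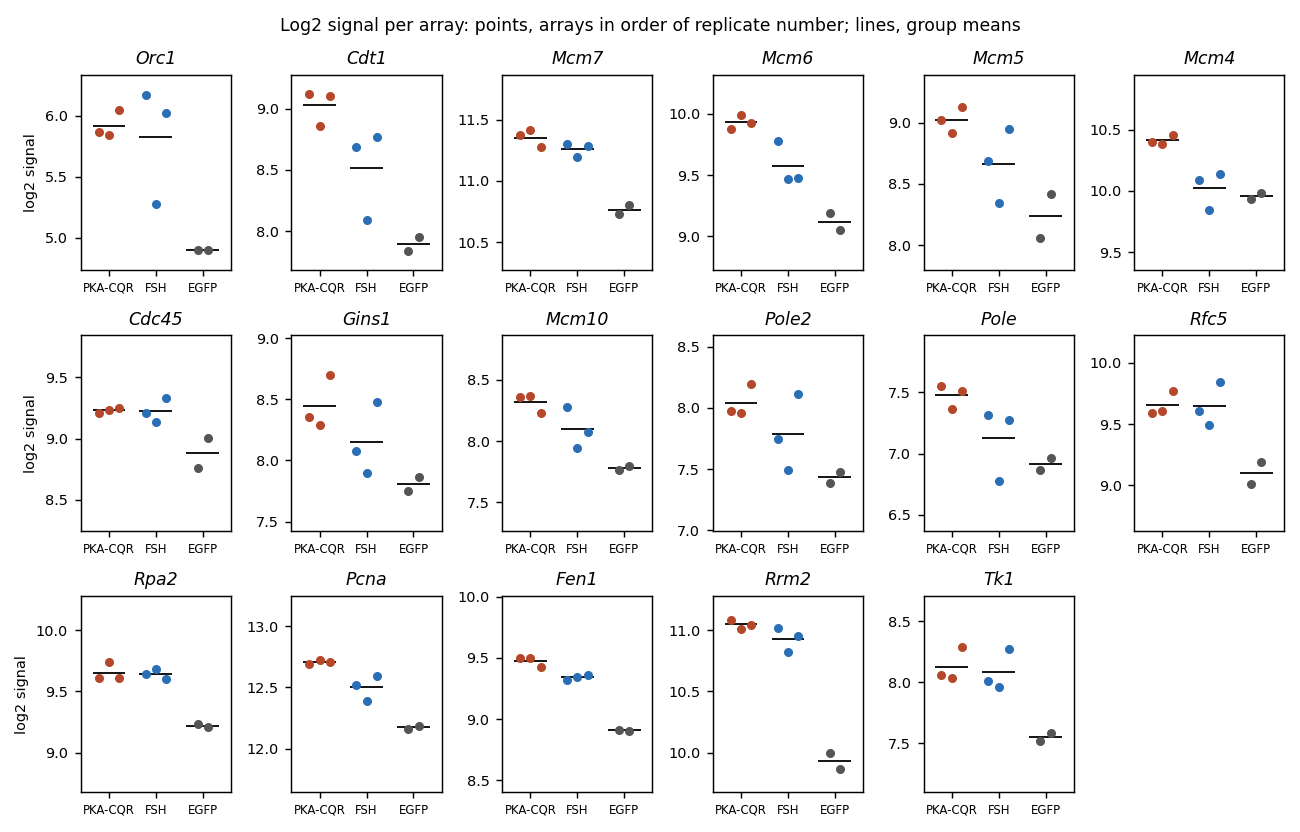
Log2 signal of the 17 members chosen by the size of their rise for array values (*Tyms* is not drawn), 1 panel per gene, with points for the PKA-CQR (red), FSH (blue) and EGFP (grey) arrays in order of replicate number and lines for group means; each panel spans the same log2 range around its own midpoint. All PKA-CQR points lie above the EGFP points in every panel, and the FSH points range from overlap with EGFP in *Mcm4* to the level of PKA-CQR in *Rpa2*. The members were chosen by their rise in these same arrays, so the separation of PKA-CQR from EGFP follows largely from the choice.

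Of the genes that switch the loaded ring on, 3 of 5 rose with PKA-CQR (60%, against 6.48% of all genes). With FSH 1 of 5 rose (20%, against 13.4%). *Cdc45*, the helicase cofactor, had log2 signals of 9.21, 9.24 and 9.25 in PKA-CQR arrays, 9.21, 9.14 and 9.33 in FSH arrays and 8.76 and 9.0 in EGFP arrays. It rose 1.28-fold with PKA-CQR (adjusted p = 0.0433) and 1.27-fold with FSH (adjusted p = 0.027), and the PKA-CQR and FSH arrays overlapped. The call with PKA-CQR was lost in 6 of the 8 fits that leave out 1 array, all but those without FSH replicate 3 or EGFP replicate 2 (adjusted p up to 0.298), and with the replicate number as a block (adjusted p = 0.0703). The call with FSH was lost without FSH replicate 1 or 3 or EGFP replicate 1 (up to 0.202). *Gins1*, a subunit of the 4-membered GINS complex, had log2 signals of 8.36, 8.29 and 8.70 in PKA-CQR arrays, 8.08, 7.90 and 8.47 in FSH arrays and 7.75 and 7.87 in EGFP arrays. It rose 1.56-fold with PKA-CQR (adjusted p = 0.0486), close to the threshold, and had a log2 fold change of 0.34 with FSH (SE 0.18, adjusted p = 0.204). Under both treatments replicate 3 was the highest array of *Gins1*, and the call was kept only without FSH replicate 2 or 3 (adjusted p up to 0.241 in the other 6 fits that leave out 1 array).

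*Mcm10*, which binds the helicase as forks start, had log2 signals of 8.36, 8.37 and 8.23 in PKA-CQR arrays, 8.28, 7.94 and 8.07 in FSH arrays and 7.76 and 7.79 in EGFP arrays. It rose 1.46-fold with PKA-CQR (adjusted p = 0.0107) and missed the threshold with FSH at 1.25-fold (adjusted p = 0.0546), although all 3 FSH arrays lay above both EGFP arrays. With the replicate number as a block it passed with FSH (adjusted p = 0.047), and without EGFP replicate 1 its call with PKA-CQR was lost (adjusted p = 0.0769). The other GINS subunits on the arrays were not called: *Gins3* had log2 fold changes of 0.34 with PKA-CQR (adjusted p = 0.0608) and 0.21 with FSH, and *Gins4* of 0.06 with PKA-CQR and -0.04 with FSH.

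With FSH, 0 of 8 polymerase and primase genes rose, where 13.4% of all genes did. With PKA-CQR 2 rose (25%, against 6.48% of all genes), both subunits of polymerase epsilon, the leading-strand enzyme. *Pole*, its catalytic subunit, had log2 signals of 7.55, 7.36 and 7.51 in PKA-CQR arrays, 7.32, 6.78 and 7.28 in FSH arrays and 6.86 and 6.97 in EGFP arrays. It rose 1.48-fold with PKA-CQR (adjusted p = 0.0495) and had a log2 fold change of 0.21 with FSH (SE 0.16, adjusted p = 0.384). FSH replicate 2 of *Pole* lay below both EGFP arrays, and the other FSH arrays lay above them.

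*Pole2*, the second subunit, had log2 signals of 7.98, 7.96 and 8.19 in PKA-CQR arrays, 7.75, 7.49 and 8.11 in FSH arrays and 7.39 and 7.47 in EGFP arrays. It rose 1.53-fold with PKA-CQR (adjusted p = 0.044) and had a log2 fold change of 0.35 with FSH (adjusted p = 0.161), with every FSH array above EGFP. Both calls with PKA-CQR stood just under the threshold: that of *Pole* was lost without any 1 PKA-CQR or EGFP array (adjusted p up to 0.244) and with the replicate number as a block (adjusted p = 0.0583), and that of *Pole2* without any of these 5 arrays or FSH replicate 1 (up to 0.216). For polymerase alpha and primase, which lay down the first stretch of each strand, *Pola1*, *Pola2* and *Prim2* had log2 fold changes of 0.03 to 0.13 with PKA-CQR and of -0.14 to -0.07 with FSH. *Prim1*, the catalytic primase subunit, had log2 fold changes of 0.38 with PKA-CQR (adjusted p = 0.132) and 0.27 with FSH (adjusted p = 0.213). Of polymerase delta, which copies the lagging strand, *Pold1* had 0.34 (adjusted p = 0.0535) with PKA-CQR and 0.21 with FSH as log2 fold changes, and *Pold2* had 0.32 with PKA-CQR and 0.35 with FSH.

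Of the clamp, its loader and the single-strand binding protein, *Pcna*, *Rfc2*, *Rfc5* and *Rpa2* rose under each treatment (4 of 9 genes or 44.4%, against the shared EGFP arrays). Among all genes 6.48% rose with PKA-CQR and 13.4% with FSH. *Pcna*, the ring that tethers polymerases to DNA, had log2 signals of 12.69, 12.73 and 12.71 in PKA-CQR arrays, 12.52, 12.39 and 12.59 in FSH arrays and 12.16 and 12.18 in EGFP arrays. It rose 1.45-fold with PKA-CQR (0.54 on the log2 scale, SE 0.08, adjusted p = 0.00272) and 1.25-fold with FSH (0.33, SE 0.08, adjusted p = 0.0149). The 3 groups did not overlap, in the order PKA-CQR, FSH and EGFP, and the call with FSH was lost without either EGFP array (adjusted p up to 0.0823).

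*Rfc5*, a small subunit of the complex that opens PCNA, had log2 signals of 9.59, 9.61 and 9.77 in PKA-CQR arrays, 9.61, 9.50 and 9.84 in FSH arrays and 9.01 and 9.19 in EGFP arrays. It rose 1.47-fold with PKA-CQR (adjusted p = 0.0149) and 1.47-fold with FSH (adjusted p = 0.0085). *Rpa2*, the middle subunit of the trimer that coats single-stranded DNA, had log2 signals of 9.61, 9.74 and 9.61 in PKA-CQR arrays, 9.64, 9.68 and 9.60 in FSH arrays and 9.23 and 9.21 in EGFP arrays and rose 1.35-fold with PKA-CQR (adjusted p = 0.00601) and 1.34-fold with FSH (adjusted p = 0.00346). For both genes the PKA-CQR and FSH arrays overlapped and stood above EGFP. The calls of *Rpa2* held when any 1 array was left out, whereas those of *Rfc5* were lost without EGFP replicate 1 (with FSH, adjusted p = 0.0766) or without it or PKA-CQR replicate 3 (with PKA-CQR, adjusted p up to 0.127).

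*Rfc2*, another loader subunit, rose 1.26-fold with PKA-CQR (adjusted p = 0.0382) and 1.28-fold with FSH (adjusted p = 0.0176). Its call with PKA-CQR was lost without any 1 PKA-CQR or EGFP array or FSH replicate 1, and that with FSH without EGFP replicate 2 or with only the 2 groups fitted. The other loader genes were not called, with log2 fold changes of -0.09 for *Rfc1*, 0.26 for *Rfc3* and 0.38 for *Rfc4* with PKA-CQR, and of -0.05, 0.10 and 0.18 with FSH. Of the RPA trimer, *Rpa1*, its large subunit, had log2 fold changes of 0.21 with PKA-CQR and 0.06 with FSH. *Rpa3*, its small subunit, had log2 fold changes of 0.34 with PKA-CQR (adjusted p = 0.149) and 0.36 with FSH (adjusted p = 0.0796), and all treated arrays of *Rpa3* lay above both EGFP arrays.

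*Fen1*, the nuclease that removes the flap from each Okazaki fragment, had log2 signals of 9.50, 9.50 and 9.43 in PKA-CQR arrays, 9.32, 9.35 and 9.36 in FSH arrays and 8.91 and 8.90 in EGFP arrays. It rose 1.48-fold with PKA-CQR (0.57 on the log2 scale, SE 0.07, adjusted p = 0.000951) and 1.35-fold with FSH (0.44, SE 0.07, adjusted p = 0.00152). Every PKA-CQR array lay above every FSH array, and both calls held when any 1 array was left out. *Lig1*, the ligase that seals the fragments, had log2 fold changes of -0.01 with PKA-CQR and -0.17 with FSH (adjusted p = 0.419), and FSH replicate 3 was its lowest array. *Chaf1b*, a subunit of the assembly factor that places histones behind the fork, had log2 fold changes of 0.27 with PKA-CQR (adjusted p = 0.0659) and 0.12 with FSH (adjusted p = 0.334).

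Of the nucleotide supply genes, 4 of 5 rose with PKA-CQR (80%, against 6.48% of all genes) and 3 of 5 with FSH (60%, against 13.4%). *Rrm2*, the subunit of ribonucleotide reductase that limits deoxynucleotide synthesis in S phase, had log2 signals of 11.09, 11.01 and 11.05 in PKA-CQR arrays, 11.01, 10.82 and 10.95 in FSH arrays and 9.99 and 9.87 in EGFP arrays. It rose 2.17-fold with PKA-CQR (1.12 on the log2 scale, SE 0.08, adjusted p = 0.00011) and 2.00-fold with FSH (1.00, SE 0.08, adjusted p = 5.04e-05), and both calls held when any 1 array was left out. The treated arrays overlapped and stood well above EGFP. The platform annotation gives the *Rrm2* probe set a second symbol, *Rrm2l1*, so the signals of the 2 genes cannot be told apart here. The probe sets of *Mcm6*, *Cdc45* and *Lig1* are of kinds that can match more than 1 transcript.

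*Tk1*, the cytosolic thymidine kinase of S phase, had log2 signals of 8.06, 8.04 and 8.28 in PKA-CQR arrays, 8.01, 7.96 and 8.27 in FSH arrays and 7.52 and 7.59 in EGFP arrays. It rose 1.49-fold with PKA-CQR (adjusted p = 0.0125) and 1.44-fold with FSH (adjusted p = 0.0098), with replicate 3 the highest array under both treatments, and both calls were lost without EGFP replicate 1 (adjusted p = 0.0929 and 0.0689). *Dut*, the dUTPase that keeps uracil out of DNA, rose 1.38-fold with PKA-CQR (adjusted p = 0.00574) and 1.41-fold with FSH (adjusted p = 0.00204). *Rrm1*, the large reductase subunit that is present through the cell cycle, rose 1.23-fold with PKA-CQR (adjusted p = 0.0448) and had a log2 fold change of 0.18 with FSH (adjusted p = 0.145). The call of *Rrm1* was lost in each of the 8 fits that leave out 1 array, and that of *Dut* with PKA-CQR without EGFP replicate 1. *Tyms*, which makes thymidylate from dUMP, had log2 signals of 8.44, 8.48 and 8.61 in PKA-CQR arrays, 8.63, 8.70 and 8.74 in FSH arrays and 8.62 and 8.19 in EGFP arrays and was called in no comparison. It was the only member for which every PKA-CQR array lay below every FSH array, and EGFP replicate 1 was level with the lowest FSH array.

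**Figure D4:**
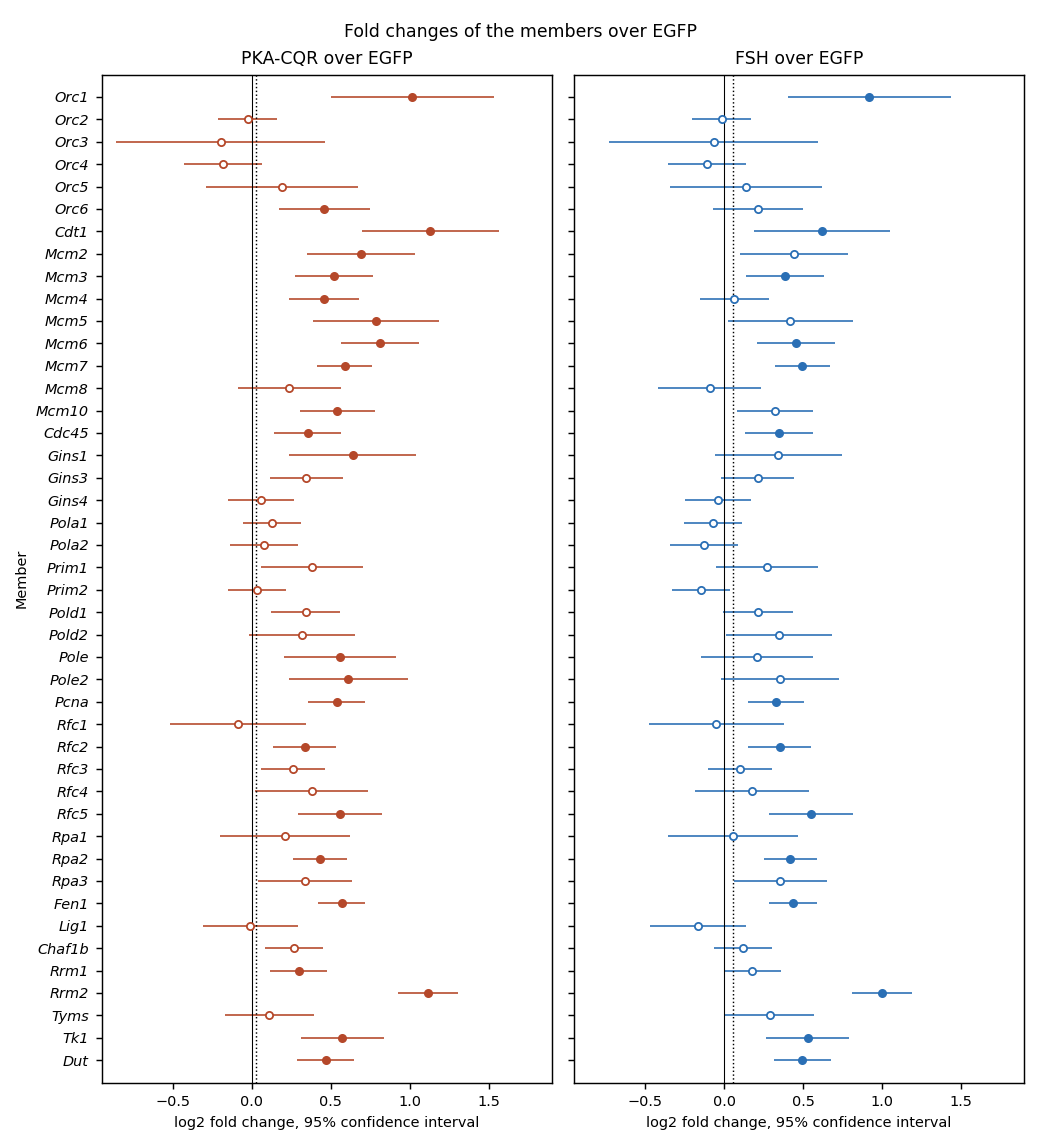
Log2 fold change of each member over EGFP with its 95% confidence interval, PKA-CQR on the left and FSH on the right; filled points were called, the solid line marks 0 and the dotted line the median over all 13915 genes. No interval of either panel lies wholly below 0, and *Orc1*, *Cdt1* and *Rrm2* reach the highest estimates with PKA-CQR.

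The direct comparison asks whether the members differed between PKA-CQR and FSH. Of 44 members, 1 rose with PKA-CQR over FSH (2.27%) and 0 fell, where 3.95% of all genes rose and 2.96% fell, so the share called was no higher among the members than among all genes. Other fits called more: 14 members rose with array weights, where 7.5% of all genes did, and 6 with EGFP replicate 2 placed in culture group 3, where 6.15% did. The called gene was *Mcm4*, with a log2 difference of 0.39 (SE 0.09, adjusted p = 0.0309), and its call was lost without PKA-CQR replicate 1, 2 or 3 or FSH replicate 1 or 2 (adjusted p up to 0.113). At an unadjusted p under 0.05, 11 members were higher and 0 lower, but the share of all genes at that threshold was not counted. The mean was higher with PKA-CQR for 35 of 44 members, against 42.5% of all genes, and the median log2 difference was 0.13, against -0.023 over all genes. Every PKA-CQR array lay above every FSH array for 13 members (29.5%, against 10.7% of all genes) and below for *Tyms* alone (2.27%, against 12.1%).

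Those 13 were *Cdt1*, *Mcm4*, *Mcm6*, *Mcm8*, *Pola1*, *Pola2*, *Prim2*, *Pole*, *Pcna*, *Rfc3*, *Fen1*, *Chaf1b* and *Rrm1*. *Cdt1* had the highest estimate, a log2 difference of 0.51 (95% confidence interval 0.12 to 0.89, adjusted p = 0.137), and that of *Mcm6* was 0.36 (0.14 to 0.58, adjusted p = 0.0709). Some genes with strong rises over EGFP had smaller estimates: *Rrm2* had a log2 difference of 0.12 (-0.05 to 0.29), *Mcm7* of 0.09 (-0.06 to 0.25) and *Rpa2* of 0.01 (-0.14 to 0.16). For *Cdc45* and *Rfc5* the differences were both 0.01, and the sign of each turned when arrays were centred on their medians. For *Orc1* the difference was 0.10 with an interval of -0.37 to 0.56, which leaves room for a difference in either direction.

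FSH replicate 2 was the lowest FSH array for 29 of 44 members, and FSH replicate 3 was the highest for 27. The same counts were not made over all genes. The median of the members over the EGFP mean was 0.34, 0.36 and 0.48 in PKA-CQR replicates 1 to 3, and 0.31, 0.14 and 0.37 in FSH replicates 1 to 3, while the same median over all genes was 0.01 to 0.07 in each of these arrays. Without FSH replicate 2, 19 members rose with FSH (10.3% of all genes did), the median log2 fold change of the members with FSH was 0.35 and the median difference of PKA-CQR over FSH was 0.10. Beta-actin, whose 3′ signal exceeds its 5′ signal by more where RNA is less intact, gave log2 differences of 1.45, 1.34 and 1.66 in PKA-CQR, 1.30, 1.45 and 1.88 in FSH and 1.02 and 1.53 in EGFP arrays; with it as a covariate, 25 members rose with PKA-CQR, 15 with FSH and 3 with PKA-CQR over FSH, where 9.83%, 17.5% and 5.86% of all genes rose.

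Beyond the members, 31 other replication factors were measured. With PKA-CQR 11 rose (35.5%, against 6.48% of all genes) and 0 fell (against 6.02%). With FSH 6 rose (19.4%, against 13.4%) and 0 fell (against 12.1%). *Gmnn*, geminin, the inhibitor that binds CDT1 and blocks reloading of the MCM ring, rose 4.50-fold with PKA-CQR (adjusted p = 1.48e-05) and 3.45-fold with FSH (adjusted p = 1.36e-05), and thus by more than any of the 44 members. *Uhrf1*, which maintains DNA methylation after replication, rose 1.89-fold with PKA-CQR (adjusted p = 0.00295), was not called with FSH (1.26-fold, adjusted p = 0.118) and was higher with PKA-CQR than with FSH (1.51-fold, adjusted p = 0.0232). *Wdhd1*, which couples polymerase alpha to the helicase, rose 1.62-fold with PKA-CQR and 1.25-fold with FSH and was also higher with PKA-CQR than with FSH (adjusted p = 0.00928).

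Of 31 other genes of nucleotide synthesis and salvage, 2 rose and 0 fell with PKA-CQR (6.45%, near the share of all genes), and 5 rose and 2 fell with FSH (16.1% and 6.45%, where 13.4% and 12.1% of all genes did). *Dhodh*, of pyrimidine synthesis, rose 1.33-fold with PKA-CQR (adjusted p = 0.027) and 1.32-fold with FSH (adjusted p = 0.0168). *Ctps1*, CTP synthase, rose 1.64-fold with FSH (adjusted p = 0.00168). *Shmt1*, a serine hydroxymethyltransferase of the folate cycle, rose 1.59-fold with FSH (adjusted p = 0.00268) and was the only gene of the list that was lower with PKA-CQR than with FSH (0.746-fold, adjusted p = 0.0415).

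Among 29 regulators of the G1 to S transition, 8 rose (27.6%) and 1 fell (3.45%) with PKA-CQR, where 6.48% and 6.02% of all genes did. With FSH 9 rose (31%, against 13.4% of all genes) and 4 fell (13.8%, near the 12.1% of all genes). *Ccnd2*, cyclin D2, rose 2.16-fold with PKA-CQR (adjusted p = 0.0185) and 1.93-fold with FSH (adjusted p = 0.0206), and *E2f8*, a repressor of the E2F family, rose 2.03-fold with PKA-CQR (adjusted p = 0.00546) and 1.49-fold with FSH (adjusted p = 0.0376). *Rb1*, the retinoblastoma protein, fell to 0.789-fold of EGFP with PKA-CQR (adjusted p = 0.019) and 0.684-fold with FSH (adjusted p = 0.000853). *Skp2*, which targets cell cycle inhibitors for destruction, was higher with PKA-CQR than with FSH (1.24-fold, adjusted p = 0.0415), and *Cdkn1c*, a cyclin-dependent kinase inhibitor, was lower (0.743-fold, adjusted p = 0.0132).

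Of 43 genes of mitosis and G2/M, 15 rose (34.9%) and 0 fell with PKA-CQR, where 6.48% and 6.02% of all genes did. With FSH 12 rose (27.9%) and 3 fell (6.98%), where 13.4% and 12.1% of all genes did. *Kif20a*, a kinesin of cytokinesis, rose 2.62-fold with PKA-CQR (adjusted p = 0.00141) and 1.98-fold with FSH (adjusted p = 0.00369). *Kif23*, a further cytokinesis kinesin, was at 0.926-fold of EGFP with PKA-CQR (adjusted p = 0.672), fell to 0.428-fold with FSH (adjusted p = 0.000144) and was 2.16-fold higher with PKA-CQR than with FSH (adjusted p = 0.000846). *Mki67*, a general proliferation marker, was called in neither comparison (adjusted p = 0.24 with PKA-CQR and adjusted p = 0.855 with FSH). Of 23 genes of replication stress and S-phase repair, 5 rose (21.7%, against 6.48% of all genes) and 0 fell with PKA-CQR. With FSH 3 rose and 1 fell (4.35%, against 12.1%), and the share that rose (13%) was near that of all genes (13.4%).

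**Figure D5:**
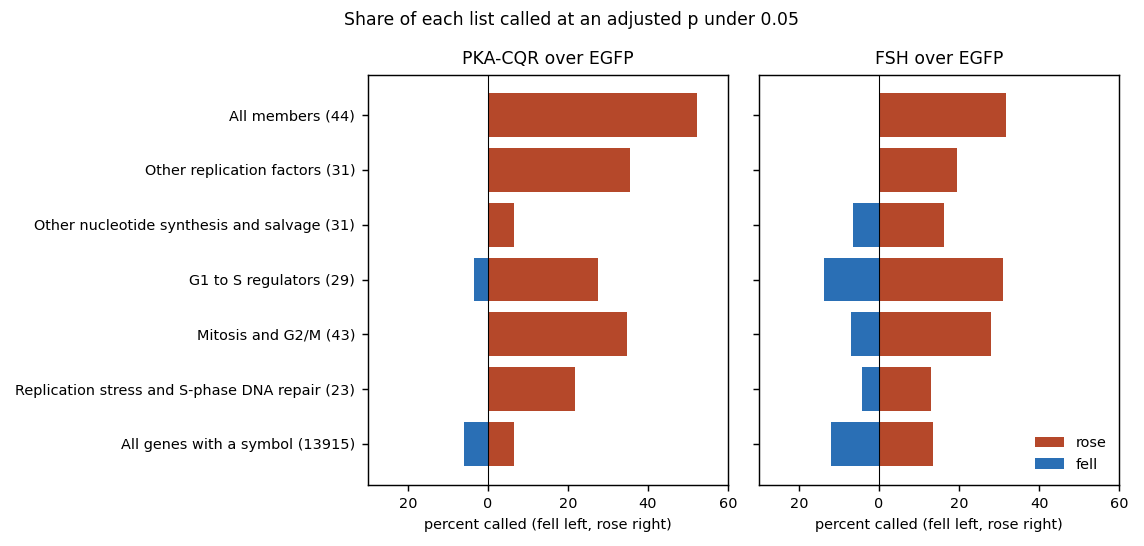
Percent of the measured genes of each list (number in parentheses) called at an adjusted p under 0.05, PKA-CQR over EGFP on the left and FSH over EGFP on the right, with risen genes to the right of 0 and fallen genes to the left. The members reach 52.3% risen with PKA-CQR and 31.8% with FSH, and all genes with a symbol 6.48% and 13.4%.

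The arrays resembled each other closely: medians of log2 signal were 8.37 to 8.44, and 2 arrays of a group correlated at 0.993 to 0.997. As the share for the marker counts that follow, 6.48% of all genes rose and 6.02% fell with PKA-CQR, and 13.4% and 12.1% with FSH. Of 16 GC markers, 10 were called higher with PKA-CQR and 12 with FSH, and 0 fell. Among them *Cyp19a1*, aromatase, and *Cyp11a1*, the side-chain cleavage enzyme, rose 67.3-fold and 39.0-fold with PKA-CQR and 31.5-fold and 55.0-fold with FSH. *Prkaca*, the gene of the catalytic subunit, was not called (adjusted p = 0.837 with PKA-CQR), and since its probe set is not known to detect the mutant transcript, this checks no label. Markers of some other cells moved with the groups: of 9 smooth muscle and pericyte genes 5 fell with PKA-CQR and 6 with FSH, with summed log2 signals of 12.4 to 12.6 in PKA-CQR, 11.4 to 11.7 in FSH and 13.5 to 14.3 in EGFP arrays. Of 13 theca and stroma genes 2 fell and 1 rose with PKA-CQR and 4 fell and 1 rose with FSH (summed log2 signals of 12.1 to 12.3 in PKA-CQR, 11.4 to 11.7 in FSH and 12.7 to 13.1 in EGFP arrays). Of 14 macrophage and leukocyte genes 0 were called with PKA-CQR, whereas 4 rose and 1 fell with FSH (summed log2 signals of 11.8 to 12.0 in PKA-CQR, 11.5 to 11.7 in FSH and 12.0 in both EGFP arrays). That sum rests largely on *Cd14*, which fell to a mean log2 signal of 10.61 with FSH, against 11.49 in EGFP arrays, whereas 13 of the 14 genes had a higher mean with FSH than with EGFP. Of 9 endothelial genes 0 were called with PKA-CQR and 1 fell with FSH, of 5 oocyte genes 0 were called with PKA-CQR and 1 fell with FSH, and of 8 surface epithelium genes 2 rose under each treatment. The pan-leukocyte gene *Ptprc* and the endothelial gene *Pecam1* had mean log2 signals of 4.54 and 4.98 in PKA-CQR, 4.64 and 5.06 in FSH and 4.61 and 5.0 in EGFP arrays. The part of these cells in the members' values was not tested.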

How the data were processed

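RNA of 8 GC cultures (3 PKA-CQR, 3 FSH and 2 EGFP) was hybridized to Affymetrix rat arrays. The deposited values are log2 signals that the authors computed with RMA, whose version and chip definition are not given in the sources used here. RMA brings all arrays to 1 distribution, so a change is relative to the other genes of an array. The study's own analysis used MAS5.0 values with Student's t test, and MAS5.0 values were not used here. Of the 31099 probe sets in the table used, 13915 carry a gene symbol, 1 per gene, and these were analysed. For these 13915 a second table of the same signals agrees in every value (0 differ). The probe sets without a symbol were not compared between the tables.

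The limma package (version 3.58.1, R 4.3.3) was used to fit all 8 arrays together (lmFit, then eBayes), with Benjamini-Hochberg adjustment across the 13915 genes. PKA-CQR and FSH were set against the same EGFP arrays. Precision is limited by the number of arrays.

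The members and lists were chosen with earlier results of these data known, so no test was made over a list. Array values are given for the 2 called members of each role and comparison with the largest rise (0 members fell); other lists name called genes from the 2 at either end, and some genes of these lists are counted but not reported by name here. *Tyms* was added after its values were seen, as were the members named by log2 fold change alone to account for every member. The reported fit has no block. In the alternatives with a block, arrays with the same replicate number were treated as a pair, since according to the methods each of 3 groups of GCs was given every treatment. Deviations from the group means correlated at 0.23, 0.44 and 0.62 between PKA-CQR and FSH replicates 1, 2 and 3. They correlated at 0.13 and 0.42 between EGFP replicate 1 and its PKA-CQR and FSH partners, and at -0.32 and -0.27 for EGFP replicate 2. EGFP replicate 2 correlated at -0.13 and -0.42 with PKA-CQR and FSH replicate 1. With PKA-CQR and FSH replicate 3 it correlated at 0.41 and 0.52. The 2 EGFP arrays deviate from their mean by equal and opposite amounts. With any given array, EGFP replicate 2 therefore has the value of EGFP replicate 1 with the sign turned, and these correlations do not decide its pairing. The alternatives were other scalings and filters, every probe set tested, each array left out, 3 forms of the replicate block, other variance models, array weights, beta-actin as a covariate, the methods' t-test, a fold minimum and means of linear signals. Promoter windows and the words in them were read from RefSeq (GRCr8).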

Additional observations from a re-analysis of the deposited data

How the results depend on the processing

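Across every alternative run, 0 members fell in any of the 3 comparisons. The count of members that rose over EGFP was 6 to 23 with PKA-CQR (23 as reported) and 8 to 19 with FSH (14 as reported) when 1 array was left out. It was lowest without EGFP replicate 1 in both and, with FSH, equally low without EGFP replicate 2. The share of all genes that rose was lower than reported in each of these fits except that of PKA-CQR without FSH replicate 3 (7.16%, against 6.48% as reported). With FSH the member count was nevertheless higher than reported without FSH replicate 2 (19, where 10.3% of all genes rose) and without PKA-CQR replicate 3 (15, where 12.4% did). With the pairing of replicates as a block, 19 members rose with PKA-CQR and 16 with FSH, with a random block 26 and 16, and with EGFP replicate 2 placed in culture group 3 they were 30 and 25. Only the 2 groups compared gave 21 with PKA-CQR, where 6.24% of all genes rose, and 8 with FSH, where 9.99% did. The methods' t-test gave 5 with PKA-CQR and 2 with FSH at its threshold of p under 0.001 (0.992% and 1.52% of all genes), and 1 and 4 after Benjamini-Hochberg adjustment (0.28% and 3.03%). A fold minimum of 1.5 left 9 with PKA-CQR, where 3.34% of all genes passed, and 3 with FSH, where 5.76% did, which is near the members' share. A second quantile normalization gave 17 with PKA-CQR and 13 with FSH, where 6.03% and 12.3% of all genes rose. A test of every probe set gave the same member counts, where 4.23% and 9.1% of the probe sets rose. Without FSH replicate 2 the median log2 fold change with FSH was 0.35, and the range over the arrays left out was 0.23 to 0.35.

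For PKA-CQR over FSH, 1 member rose as reported, where 3.95% of all genes did. Without 1 PKA-CQR or FSH array 0 to 1 rose (2.13% to 3.41% of all genes). A random replicate block gave 2 (4.84%), and EGFP replicate 2 in culture group 3 gave 6 (6.15%). The beta-actin covariate gave 3 (5.86%) and array weights 14 (7.5%). The methods' t-test gave 0 at p under 0.001 (0.977%) and 0 after Benjamini-Hochberg adjustment (0.51%). A fold minimum of 1.5 also left 0 (2.31%). The cause was not tested. With array weights the log2 fold change with FSH turned to -0.0579 for *Mcm4* and -0.0243 for *Pole*. The difference of PKA-CQR over FSH turned negative for *Orc1* without FSH replicate 2 (-0.176 to 0.271 over the arrays left out), for *Cdc45* with arrays centred on their median (-0.00345) and without PKA-CQR replicate 3, FSH replicate 1 or FSH replicate 2 (-0.037 to 0.0587 over all arrays left out), for *Rfc5* with centring (-0.00242) and without the same arrays (-0.0689 to 0.104), for *Rpa2* with array weights (-0.011) and without PKA-CQR replicate 2 or FSH replicate 3 (-0.0316 to 0.0363), and for *Tk1* without PKA-CQR replicate 3 or FSH replicate 2 (-0.033 to 0.14). None of these values was called. Of the other values under an alternative for the 17 members named with their array values by rule (without *Tyms*), 989 kept direction and side of the threshold, 136 lost the call and 29 gained it. These totals pool the 3 comparisons. The 989 include values that were not called as reported and so had no call to lose. They also include the values of a second, identical table, which could not change. The mean of other probe sets of a symbol was not run, since in the table used each gene has 1 probe set with its symbol. Whether probe sets without a symbol there also detect the members was not tested. With 2 EGFP arrays a member that missed the threshold may still differ.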
